A study of Sus scrofa with 6 samples.

Results

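The genes described here are 30 parts of the unfolded protein response and of the integrated stress response, measured in pig embryos of the 4-cell stage. They were chosen by symbol from a list of sensors, kinases, transcription factors, chaperones and targets, and all 30 were found among the 30376 genes of the deposited table. All 30 also had enough reads to enter the test, which took in 16056 genes. Poly(A) RNA was sequenced in 6 libraries from oocytes that had been activated with 2 electrical pulses of 120 V and then cultured for 4 days under 5% CO2 in PZM-5 medium with albumin. The control group (3 libraries, genotype field WT) was kept at 38.5 °C, and the high-temperature group (3 libraries, genotype field HT) was kept at 41.5 °C. No transgene or drug is named for either group, and the series asks what heat does to activation of the embryonic genome. The labels give about 300 as the number of 4-cell samples lysed, without saying whether this is per library, and do not say whether the libraries of a group came from separate cultures. The p-values thus rest on the spread among these libraries, and that spread may be technical.

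The unfolded protein response is set off when unfolded proteins build up in the endoplasmic reticulum (ER), the compartment in which secreted and membrane proteins fold. Sensors in the ER membrane then slow protein synthesis and switch on genes for chaperones, folding enzymes and the disposal of misfolded proteins. The integrated stress response is the arm that runs through phosphorylation of eIF2α, a translation initiation factor. Kinases that respond to ER stress, amino acid shortage, double-stranded RNA or heme shortage converge on it, and it favours translation of ATF4. Much of this signalling takes place through phosphorylation, cleavage and translation of proteins, or through the splicing of XBP1 mRNA. Counts per gene do not read those steps.

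Each library held 28114005 to 30079385 counts. The TMM scaling factor of control library 1 was 0.865, while the other 5 libraries had factors of 0.9996 to 1.09. All 11 listed oocyte and embryo markers had reads in the libraries, with DPPA3 the most abundant of them, and summed to 2940 to 3796 CPM in control and 2757 to 2973 CPM in heated libraries. Of 15 cumulus and granulosa cell markers in the table, 5 had no reads in any library (FSHR, CYP11A1, FOXL2, AMH and INHA). The summed level of the 15 was 24.73 to 24.99 CPM in the control libraries and 25.1 to 27.1 CPM in the heated ones (CPM gives the reads of a gene relative to the TMM-scaled size of its library). These ranges did not overlap but lay close to each other. PGR, the most abundant of the 15, did overlap, at 10.7 to 11.5 CPM in controls and 8.90 to 11.7 CPM in heated libraries. HSD3B1 did not, at no more than 0.133 CPM in controls and 0.164 to 0.382 CPM in heated libraries, and 3.66% of all genes tested were likewise higher without overlap. The part of these markers in any result below was not tested. The 9 stromal and blood cell markers summed to 11.6 to 13.7 CPM in controls and 10.3 to 12.4 CPM at high temperature. Among them COL3A1 was lower without overlap, at 0.793 to 1.92 CPM in controls and at most 0.684 CPM in heated libraries. Of all genes tested 4.05% were lower without overlap. All values are shares of a library, so a change in a gene's share cannot be told apart from a change in its amount per embryo.

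At 41.5 °C none of the 30 genes passed the edgeR quasi-likelihood test at an adjusted p of 0.05, and over all 16056 genes 0% were called. At an unadjusted p below 0.05 the edgeR count was 0 of 30, against 1.85% of all genes, and DESeq2 likewise called 0 members. It called 0.0202% of the 24749 genes it tested, and an unadjusted p below 0.05 came out for 0 members and 1.58% of those genes. The fitted log2 fold changes (high temperature against control) ran from -0.32 to 0.55. There were 12 members above 0 and 18 below, with a median of -0.05 beside -0.02 for all genes tested. With no scaling beyond the library total 19 of 30 were above 0, and the median over all genes moved from -0.02 to 0.08. With control library 1 or high-temperature library 3 left out it was likewise 19 of 30, and with high-temperature library 1 left out it was 8 of 30.

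The 95% intervals show what this fit, with no term but group, could and could not resolve. For 25 of the 30 genes the upper end lay below a 2-fold rise, beside 10774 of the 16056 genes tested. For 22 both ends lay within a 2-fold change in either direction, beside 49.6% of all genes tested. At least 100 reads in every library were present for 26 members and for 7861 of the genes tested. The part of read depth in these counts was not tested. The plot of fold changes shows the widest intervals for EIF2AK1 and XBP1, the members with the fewest reads in a library. EIF2AK1 ran from -1.76 to 2.01 and was the exception to the 29 genes whose interval stayed within a 4-fold change.

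**Figure D1:**
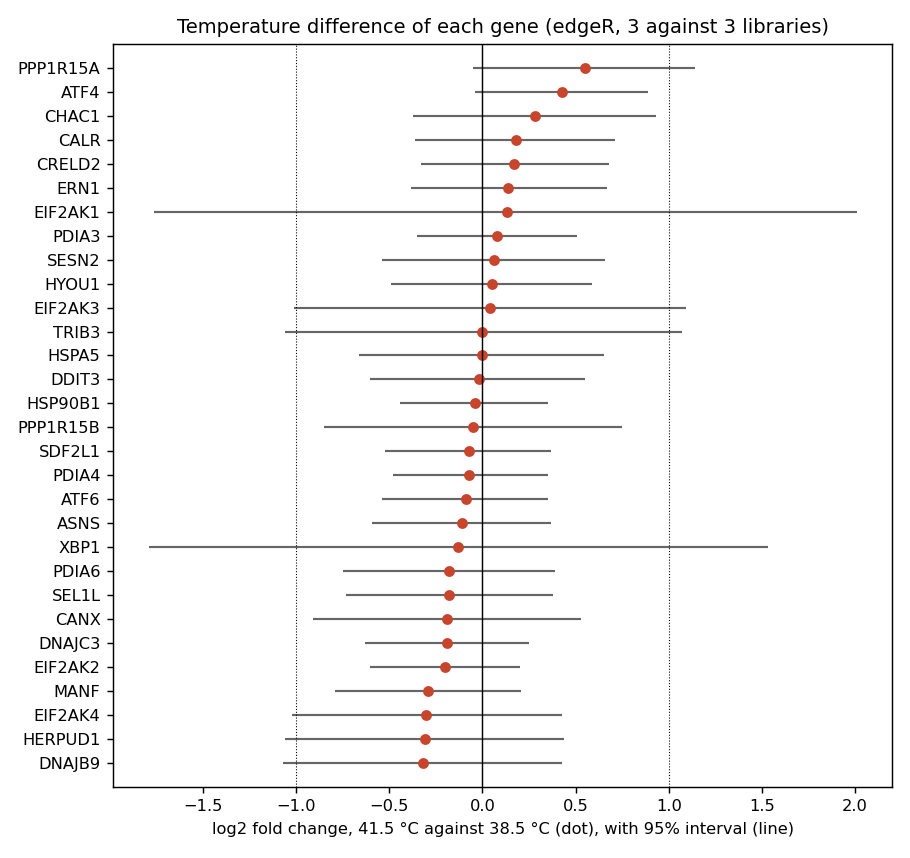
Log2 fold change of each of the 30 genes at 41.5 °C against 38.5 °C (dot, edgeR) with its 95% interval (line). Dotted lines mark a 2-fold change. Every interval holds 0, and those of ATF4 (-0.04 to 0.89) and PPP1R15A (-0.05 to 1.14) reach it only near their lower end.

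Levels were compared between genes on the TPM scale, which corrects for transcript length. Across the 6 libraries the mean TPM of the members ranged from 0.598 for SESN2 to 311.1 for MANF. It was above 10 for 17 members, between 1 and 10 for 8 and below 1 for 5 (ERN1, HERPUD1, EIF2AK1, XBP1 and SESN2). MANF and DDIT3 stood apart at the top, above 98.1% and 98.0% of the genes tested on this scale, and their libraries overlapped each other at 238.6 to 345.5 and 224.7 to 344.4 TPM. XBP1 lay above only 27.0% of the genes tested. The 30 members together took 1071 to 1403 TPM of a library, 1261 ± 17.9 TPM (SD, n = 3) in controls and 1256 ± 169 TPM at high temperature.

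**Figure D2:**
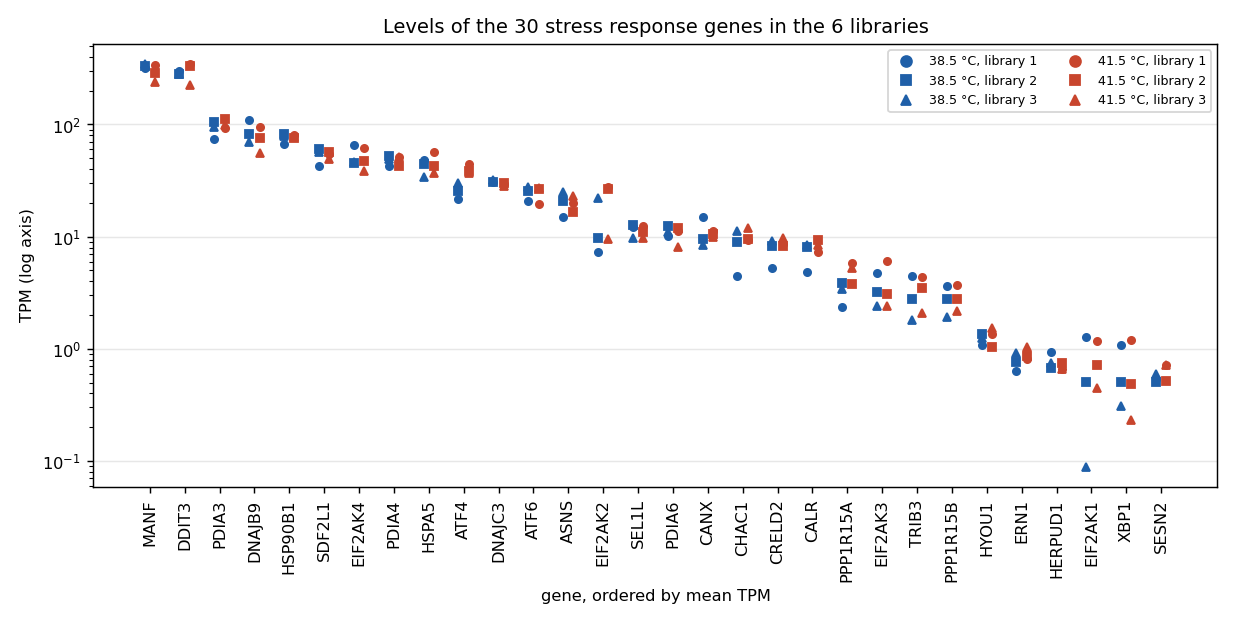
TPM (log axis) of the 30 genes in each library, ordered by mean. Blue marks libraries at 38.5 °C and red those at 41.5 °C, and the marker shape gives the library number. MANF and DDIT3 lie near 300 TPM, while EIF2AK1 and XBP1 lie at or below about 1 TPM and are spread widely between libraries.

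Among the ER sensors, ATF6 was by far the highest and 0 of 3 passed the test for temperature. ATF6 is a membrane-bound transcription factor that is cut in the Golgi under ER stress, ERN1 (IRE1) is the kinase and RNase that splices XBP1 mRNA, and EIF2AK3 (PERK) is the ER kinase of eIF2α. ATF6 was at 128.5, 138.9 and 138.4 CPM across the control libraries, against 104.0, 141.4 and 134.9 CPM in the heated libraries. Heated library 1 alone stood well below the others, and the groups overlapped (log2 fold change -0.09, standard error 0.19). ERN1 was at 3.89, 3.90 and 4.52 CPM across the control libraries, against 4.24, 4.45 and 4.91 CPM in the heated libraries, with overlapping groups (0.14, standard error 0.23). EIF2AK3 was at 20.0, 11.3 and 8.10 CPM across the control libraries, against 21.8, 10.98 and 7.78 CPM in the heated libraries. In both groups library 1 stood well above the others, and same-numbered libraries of the 2 temperatures were close (log2 fold change 0.04, 95% interval -1.01 to 1.09). On the per-length scale ATF6 had a mean of 24.5 TPM, EIF2AK3 3.67 TPM and ERN1 0.836 TPM.

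The other kinases of eIF2α behaved unalike, and each of the 3 carries a limit of how it was counted or scaled. EIF2AK1 (HRI), which is held inactive by heme and responds to oxidative and mitochondrial stress, had 196, 72 and 13 reads in the control libraries and 170, 101 and 62 at high temperature. Its level in CPM was 17.5 times higher in the highest library than in the lowest, the widest spread of any member. The exact Poisson 95% intervals of 196 reads (169.5 to 225) and 13 reads (6.92 to 22.2) were far apart, so counting error alone is smaller than this spread. EIF2AK1 shares 3774 bases of its span with AIMP2, which had 104 to 268 reads in a library, and the sources used here do not give the rule for reads in such an overlap. Without control libraries 1 or 3, the fitted fold change moved from 0.13 to 1.38 or to -0.41 (log2).

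EIF2AK2 (PKR) is the kinase that binds double-stranded RNA. It was at 72.9, 75.3 and 68.4 CPM across the control libraries, against 60.4, 64.1 and 64.0 CPM in the heated libraries. All 3 heated libraries lay below all 3 controls, with means of 62.8 ± 2.14 against 72.2 ± 3.50 CPM (SD, n = 3), or 0.870-fold. The log2 fold change was -0.20 (standard error 0.17) and the adjusted p of the edgeR test 0.999923. With library-total scaling the groups of EIF2AK2 overlapped. The authors' TPM values of the same gene pointed the other way. They were 7.33, 9.78 and 22.0 TPM in controls and 27.5, 26.5 and 9.47 TPM at high temperature, a log2 fold change of 0.70 on the log2(TPM + 0.1) scale. The TPM obtained per count, relative to the usual value of each library, differed 3.84-fold between libraries for EIF2AK2. That was the widest spread among the 7861 genes with at least 100 counts in every library, whose median was 1.007-fold. The deposited read coverage of EIF2AK2 was 17.2, 19.8 and 18.7 in controls and 16.0, 16.8 and 17.8 at high temperature, which followed the counts and not the TPM. The gene has 2 annotated transcripts (chromosome 3, 103041029 to 103096741, Sscrofa11.1) and no overlapping gene. Its level on the TPM scale is therefore uncertain, and no direction can be given for it across units.

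**Figure D3:**
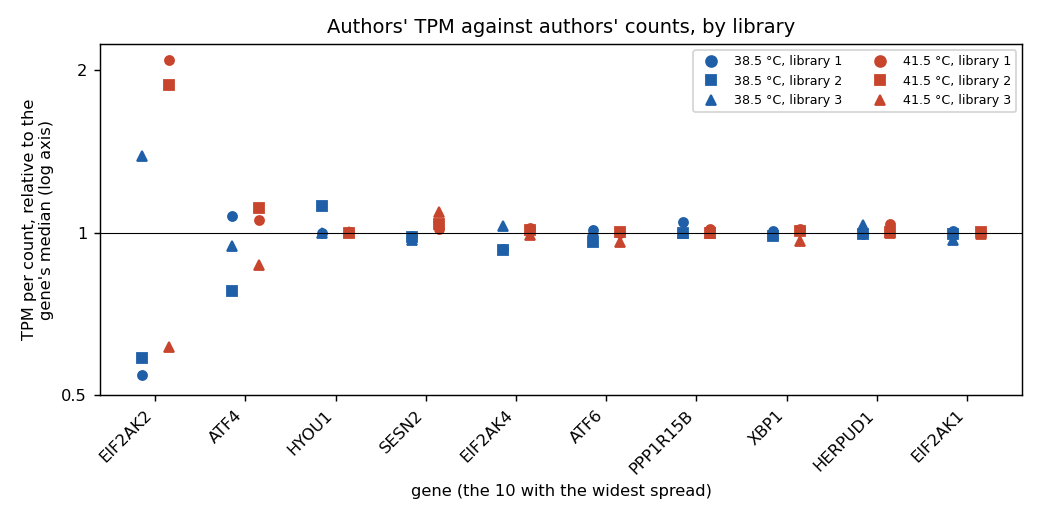
TPM per count of the 10 genes with the widest spread, relative to the gene's median over the libraries (log axis), after removing the usual value of each library. EIF2AK2 spans 3.84-fold and ATF4 1.42-fold, while the other members shown span at most 1.13-fold.

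EIF2AK4 (GCN2), the kinase that senses uncharged tRNA, had the highest TPM of the kinases, a mean of 50.9 TPM. It was at 386.9, 221 and 195 CPM across the control libraries, against 277.5, 215 and 162 CPM in the heated libraries, with library 1 highest and library 3 lowest in both groups. The groups overlapped (log2 fold change -0.30, standard error 0.32). Its span overlaps 2876 bases of SRP14, a subunit of the signal recognition particle (chromosome 1, 131241561 to 131247693). SRP14 was among the abundant transcripts, at 21017 to 52069 reads in a library. The counts of EIF2AK4 were 19.3% to 24.4% of those of SRP14 in every library, although SRP14 itself ranged from 687 to 2003 CPM. The library kit does not mark strand, so the value of EIF2AK4 is uncertain, and whether its reads came from SRP14 was not tested.

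ATF4 was higher in all 3 heated libraries than in all 3 controls, without passing the test. It lies on chromosome 5, from 8742964 to 8745752 (Sscrofa11.1), and is the transcription factor whose translation rises when eIF2α is phosphorylated. Its fitted mRNA level at 41.5 °C was 1.34 times that at 38.5 °C. The control libraries were at 30.2, 40.7 and 37.7 CPM and the heated ones at 53.6, 43.7 and 48.5 CPM, and the lowest heated library lay close to the highest control. The means were 36.2 ± 5.44 and 48.6 ± 4.93 CPM (SD, n = 3), a log2 fold change of 0.43 (standard error 0.20). The unadjusted p of the edgeR test was 0.0694 and the adjusted p 0.999923. ATF4 was the 1 member of 30 that was higher without overlap, where 3.66% of all genes tested were. The separation was present on each scale computed (TMM, DESeq2 size factors, library total, FPKM and TPM), and the log2 fold change reached 0.64 on the log2(TPM + 0.1) scale, where TPM per count also varied 1.42-fold between libraries. The lowest control was library 1 and the highest heated library also had number 1. Without control library 1 the log2 fold change of ATF4 was 0.31, and without high-temperature library 1 it was 0.35.

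PPP1R15A had the largest fitted fold change and the smallest unadjusted p of the 30 genes, without passing the test. It lies on chromosome 6, from 54172038 to 54175461, and encodes GADD34, the stress-induced subunit that directs a phosphatase to eIF2α and so ends the block on translation, and it is itself induced through ATF4. It was at 4.92, 6.76 and 5.71 CPM across the control libraries, against 10.4, 6.64 and 8.40 CPM in the heated libraries. Heated libraries 1 and 3 were above every control, while heated library 2 was slightly below the highest one. The means of 5.80 ± 0.920 and 8.47 ± 1.87 CPM (SD, n = 3) gave a 1.46-fold difference (log2 fold change 0.55, standard error 0.26). The edgeR unadjusted p was 0.0682 and the adjusted p 0.999923, and without high-temperature library 1 the log2 fold change was 0.37. PPP1R15B, the constitutive counterpart of PPP1R15A, was at 25.5, 17.2 and 11.2 CPM across the control libraries, against 22.6, 17.2 and 12.3 CPM in the heated libraries. Here same-numbered libraries lay close together and the temperatures did not separate (log2 fold change -0.05, standard error 0.35). The TPM ratio of PPP1R15A to PPP1R15B was 0.646, 1.38 and 1.79 in controls and 1.59, 1.36 and 2.41 at high temperature, with overlapping groups.

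**Figure D4:**
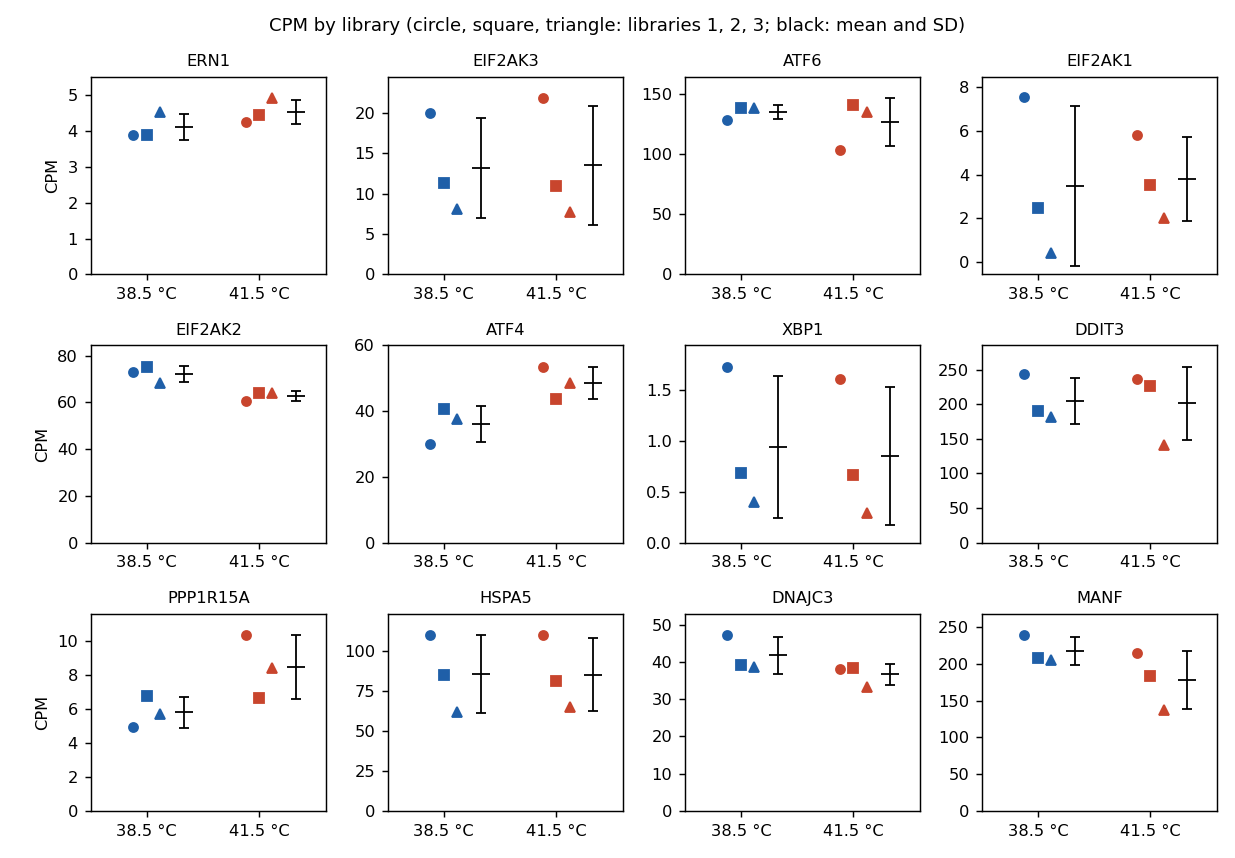
CPM of 12 members in the 3 libraries at 38.5 °C (blue) and the 3 at 41.5 °C (red), with the mean and SD of each group in black. The heated libraries of ATF4 lie above all controls and those of EIF2AK2 and DNAJC3 below, while EIF2AK3, XBP1 and HSPA5 repeat the same spread in both groups.

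XBP1 and DDIT3, the other transcription factors, sat at opposite ends of the range of levels. XBP1, the factor activated by IRE1, had only 45, 20 and 12 reads in the control libraries and 47, 19 and 9 at high temperature. The exact Poisson 95% interval of the lowest count was 4.12 to 17.1 reads. The lowest and highest CPM differed 5.88-fold, with library 1 highest in both groups, and the log2 fold change was -0.13 with an interval of -1.79 to 1.53. It ranged from -0.97 to 0.65 when single libraries were left out. DDIT3 (CHOP), a factor of the late, pro-apoptotic phase of ER stress and a target of ATF4, was at 243, 190.1 and 181.7 CPM across the control libraries, against 237, 226.7 and 140.6 CPM in the heated libraries. The heated libraries held both a value near the highest control and the lowest of all, and the log2 fold change was -0.02 (standard error 0.25). Its TPM was 278 to 975.2 times that of XBP1 in the 6 libraries. DDIT3 overlaps MARS by 69 bases, and MARS had at most 140 reads.

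The targets of ATF4 in amino acid supply and feedback were mixed in direction. Of CHAC1, TRIB3, ASNS and SESN2, 3 had a fitted fold change above 0 and 1 below, and 0 of 4 passed the test. CHAC1, which degrades glutathione, was at 6.35, 10.5 and 12.6 CPM across the control libraries, against 11.3, 11.5 and 13.1 CPM in the heated libraries. Control library 1 alone stood low. The log2 fold change of CHAC1 was 0.28 (standard error 0.28), 0.05 without control library 1 and 0.50 without control library 3. TRIB3, a pseudokinase that restrains ATF4 and CHOP, was at 7.86 ± 4.45 CPM over controls, against 7.88 ± 3.08 CPM over heated libraries (SD, n = 3). ASNS, asparagine synthetase, was at 26.4 ± 3.83 and 24.4 ± 2.83 CPM, and SESN2, an inhibitor of mTORC1 signalling, at 2.76 ± 0.333 and 2.88 ± 0.496 CPM.

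No chaperone of the HSP70, HSP90 and lectin families passed the test (0 of 5), and HSPA5 and HSP90B1 were expressed above 89.3% and 92.9% of the genes tested on the TPM scale. HSPA5 (BiP), the HSP70 of the ER and the usual marker of the response, was at 110.1, 84.7 and 61.6 CPM across the control libraries, against 109.8, 81.3 and 64.7 CPM in the heated libraries. Same-numbered libraries lay within a few CPM of each other, while libraries of 1 group were well apart. The log2 fold change was 0.00 with a 95% interval of -0.66 to 0.65, so a 2-fold rise of HSPA5 lay outside the interval. HSP90B1 (GRP94), the HSP90 of the ER, was the steadiest of the 30 genes, at 165.9, 170.6 and 156.9 CPM across the control libraries, against 170.2, 159.8 and 149.6 CPM in the heated libraries. Its highest and lowest libraries differed 1.14-fold, and the interval of its log2 fold change was -0.44 to 0.35. In TPM, HSP90B1 stood 1.38 to 2.32 times above HSPA5. HYOU1 (GRP170), an exchange factor for BiP, was at 4.87 ± 0.254 and 5.03 ± 0.780 CPM (SD, n = 3). The lectin chaperones of glycoprotein folding were at 10.5 ± 1.86 and 11.9 ± 1.59 CPM for CALR and 38.3 ± 17.1 and 33.5 ± 3.88 CPM for CANX, whose control library 1 (57.8 CPM) stood apart from the other 5 (26.2 to 36.6 CPM).

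DNAJC3, DNAJB9 and SDF2L1, which work with BiP, each had a fitted fold change below 0, and 0 of 3 passed the test. The groups did not overlap for DNAJC3 and did for the others. DNAJC3 (p58IPK), a J-domain co-chaperone that was first described as an inhibitor of PKR, was at 47.3, 39.3 and 38.6 CPM across the control libraries, against 38.2, 38.4 and 33.4 CPM in the heated libraries. The gap between the lowest control and the highest heated library was small beside the spread within each group, and the means of 41.7 ± 4.84 and 36.7 ± 2.85 CPM gave a log2 fold change of -0.19 (standard error 0.19, adjusted p = 0.999923). With DESeq2 size factors the groups of DNAJC3 overlapped. With it and EIF2AK2, 2 of 30 members were lower without overlap, where 4.05% of all genes tested were, and without control library 1 the log2 fold change of DNAJC3 was -0.09. DNAJB9 (ERdj4), a J-domain partner that restrains IRE1, was at 249.7, 156.5 and 125.0 CPM across the control libraries, against 183, 144 and 97.2 CPM in the heated libraries. Its groups overlapped (log2 fold change -0.32, standard error 0.33). SDF2L1, a component of the BiP chaperone complex, was at 36.5 ± 3.11 and 34.8 ± 4.06 CPM (SD, n = 3).

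Disulfide isomerases, which form and rearrange disulfide bonds, had 1 of 3 members above 0 and 0 past the test. PDIA3 (ERp57), the most abundant of them, was at 101.1, 118.6 and 102.9 CPM across the control libraries, against 108.2, 128.7 and 104.1 CPM in the heated libraries, with library 2 highest in both groups. Its log2 fold change was 0.08 (95% interval -0.35 to 0.51). PDIA4 was at 107 ± 6.09 and 101.7 ± 10.2 CPM, and PDIA6, which also attenuates IRE1, at 11.6 ± 1.05 and 10.3 ± 2.45 CPM (SD, n = 3). The heated library 3 of PDIA6 (7.46 CPM) was the lowest of the 6.

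MANF, a small BiP-binding protein that is secreted under ER stress (chromosome 13, 33658279 to 33662218), was the most abundant member and had a lower mean at high temperature. It was at 239.5, 208.5 and 205.5 CPM across the control libraries, against 214.0, 182.9 and 136.9 CPM in the heated libraries. Heated libraries 2 and 3 lay below all controls and heated library 1 lay within them. The means were 217.8 ± 18.8 and 178 ± 38.8 CPM (SD, n = 3), a log2 fold change of -0.29 (standard error 0.22), which was -0.10 without high-temperature library 3. CRELD2, another ER stress-inducible protein that can be secreted, was at 8.56 ± 1.34 and 9.65 ± 0.329 CPM.

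The 2 members that serve ER-associated degradation, the route that returns misfolded proteins to the cytosol for the proteasome, were at unequal levels. SEL1L, the scaffold of the HRD1 ubiquitin ligase, was at 59.7 ± 13.4 CPM over controls, against 52.7 ± 9.31 CPM over heated libraries (SD, n = 3). HERPUD1, a membrane partner of the same ligase and a common marker of induced ER stress, was at 1.66 ± 0.529 and 1.34 ± 0.145 CPM, with 37 to 59 reads in a library. On the per-length scale they stood at 11.3 and 0.738 TPM.

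The ratio of the highest to the lowest of all 6 libraries had a median of 1.70 over the 30 genes and exceeded 2 in 10 of them. Among the 26 with at least 100 reads in every library it exceeded 2 in 8, with a median of 1.665. Over the 7861 genes with that depth it exceeded 2 in 32.6%, with a median of 1.724. In 12 of the 30 genes library 1 was the highest, library 2 the middle and library 3 the lowest in both groups, a pattern found in 20.0% of all genes tested. It was found in 36 of the 104 other genes of the same pathways described below (34.6%). Neither share was limited to genes with at least 100 reads in every library, a depth that 26 of the 30 members had. The 12 members were HSPA5, DDIT3, XBP1, EIF2AK1, EIF2AK3, EIF2AK4, DNAJB9, CANX, TRIB3, MANF, PPP1R15B and SEL1L. The labels do not say what the library number stands for, and the counts are a description of these 6 libraries. CHAC1 and ERN1 had the reverse, with library 3 highest and library 1 lowest in both groups.

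**Figure D5:**
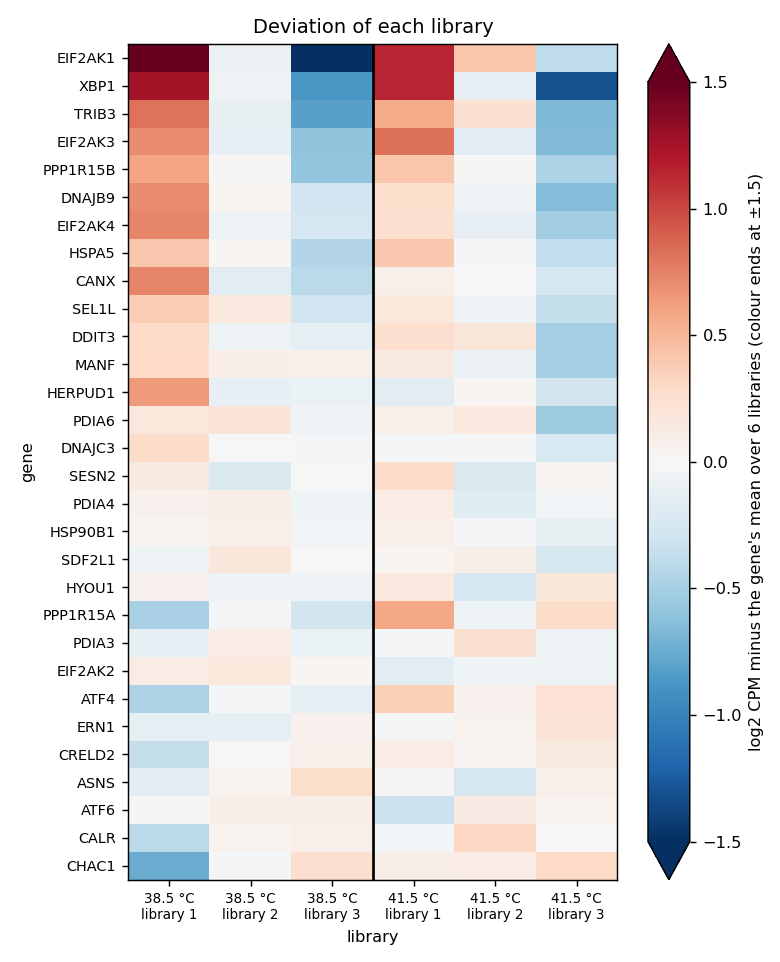
Log2 CPM of each gene in each library minus the gene's mean over the 6 libraries, with the 3 libraries at 38.5 °C on the left of the line. Genes are ordered by the difference between libraries 1 and 3 over both groups, and the upper rows, from EIF2AK1 to HSPA5, are above their mean in library 1 and below it in library 3 at both temperatures.

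A further 104 genes of the same pathways were tested, and 0 passed the edgeR test, with 46 above 0 and 58 below (66 above and 38 below with no scaling beyond the library total). Their median log2 fold change was -0.02, the same as over all genes. At an unadjusted p below 0.05 there were 2 of 104 by edgeR, against 1.85% of all genes tested, and 0 by DESeq2, against 1.58%. By group, 12 of 20 targets of the integrated stress response, 11 of 23 ER chaperones and folding enzymes, and 8 of 16 genes of sensing and signalling were above 0. So were 10 of 25 genes of ER-associated degradation, 4 of 10 genes of eIF2 and its exchange factor, and 1 of 10 genes of the translocon, the channel through which proteins enter the ER. Over all genes tested 7628 of 16056 were above 0. These counts by gene group hold for TMM scaling and were not made with other scaling. The groups did not overlap in 2 genes that were higher and 4 that were lower, beside 3.66% and 4.05% of all genes tested.

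The 3 with the smallest p were NPLOC4, NUPR1 and SSR2. NPLOC4, a cofactor of the segregase VCP in the extraction of ER proteins, was at 0.654, 0.931 and 0.631 CPM across the control libraries, against 1.68, 1.11 and 1.24 CPM in the heated libraries, higher in every heated library. Its level was low, with a mean of 0.333 TPM. NUPR1, a stress-induced chromatin protein and target of ATF4, was at 0.731, 0.172 and 0.299 CPM across the control libraries, against 1.57, 1.04 and 0.589 CPM in the heated libraries. Its groups overlapped, and it had 5 to 46 reads in a library. SSR2, a subunit of the translocon-associated complex, was at 9.69, 10.6 and 9.89 CPM across the control libraries, against 8.49, 6.98 and 6.08 CPM in the heated libraries, lower in every heated library. The log2 fold changes were 0.86 (standard error 0.35), 1.43 (0.62) and -0.49 (0.22), each with an adjusted p of 0.999923.

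The most abundant of these 104 genes per length were SEC62, PSPH and EIF2S2. SEC62, a translocon partner, had a mean of 757 TPM and was at 700.1 ± 66.5 CPM over controls, against 671 ± 76.4 CPM over heated libraries (SD, n = 3). PSPH, the last enzyme of serine synthesis, had a mean of 606 TPM and was at 687 ± 177.9 and 490.1 ± 140.7 CPM. EIF2S2, the β subunit of eIF2, had a mean of 460.3 TPM and was at 612 ± 372 and 450.7 ± 181 CPM, the widest spread of the 3. It overlaps ASIP, which had 56 to 85 reads in a library.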

How the data were processed

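Per the file headers, the deposited series table gives raw whole-number read counts for each gene. FPKM and TPM values were deposited beside them, and separate tables of each library gave FPKM and per-base read coverage, per the file headers. StringTie 2.1.3b, HISAT2 2.1.0, Bowtie2, HISAT, Trimmomatic 0.38 and the build Sscrofa11.1 appear in the submitters' processing notes, without roles. What counted the reads is not stated there. SMART-Seq v4 libraries do not mark strand, so overlapping genes can share reads. The columns of the series table were matched to libraries by name, and their FPKM equalled that of the library's own table for 99.4% to 99.5% of genes within 1e-05.

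Counts were tested with edgeR 4.0.16 (R 4.3.3) by the quasi-likelihood test, with TMM scaling, the default expression filter, no term but group, and p-values adjusted by Benjamini-Hochberg over 16056 genes. The 24 genes without a symbol (0.527% to 0.658% of counts) were kept. FPKM and TPM were tested with limma 3.58.1 on log2(value + 1) for genes at 1 or more in 3 libraries, and TPM also with a pseudocount of 0.1. DESeq2 1.42.0 was an alternative. The scripts were tested on simulated counts. Positions came from a RefSeq table of Sscrofa11.1 by Entrez ID (30 of 30 members matched). Sequences are not used here.

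The members and the lists were chosen with earlier results of these data known. Values in every library were given for sensors, kinases, factors, HSPA5, HSP90B1 and PPP1R15A, for members without overlap, for the 4 with the smallest p and for the 4 with the highest TPM. CHAC1 and PPP1R15B were added after their values were seen. Of the other pathway genes the 3 with the smallest p and the 3 with the highest TPM were named. Leaving out 2 libraries together was chosen after seeing the data. Poisson intervals cover counting error only.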

Additional observations from a re-analysis of the deposited data

How the results depend on the processing

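No member and no other pathway gene was called under any of 15 other settings in which it was tested. The FPKM setting tested 24 members and 75 other pathway genes, and the TPM settings tested 25 and 83. ERN1, HERPUD1, EIF2AK1, XBP1 and SESN2 had no value in these, and HYOU1 had none on FPKM. Over all genes DESeq2 called 5, the replicate block 3, the fit without expression filter 1, and the fit without control 1 and high-temperature 3 together called 1. Deviations of same-numbered libraries from their group means correlated at r = 0.52, 0.01 and 0.59 for numbers 1, 2 and 3. Between numbers 1 and 3 r was -0.57 and -0.52. These values do not decide whether the numbers stand for pairs, and the labels do not say. The main fit therefore had no term for library number. Spread shared by same-numbered libraries stays in its intervals and p-values. With the replicate block 4 of 30 members had an unadjusted p below 0.05, against 0 without it, and over all 16056 genes the count went from 297 to 1485. In that fit ATF4 and PPP1R15A had log2 fold changes of 0.43 and 0.53, and DNAJB9 and MANF had -0.31 each. The adjusted p of these 4 in the blocked edgeR test was 0.478 to 0.518. ATF4 alone among the members was below 0.05 on the FPKM and TPM scales (124 of 9504 genes on FPKM, 136 and 138 of 10517 on TPM). Counting error is largest for XBP1, with 9 to 47 reads in a library.

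The sign of uncalled log2 fold changes depended on the setting in 75 of 434 values of single members, and the cause was not tested. With no scaling beyond the library total the values that turned were 0.11 for HSPA5, 0.05 for HSP90B1, 0.07 for DDIT3 and PPP1R15B, 0.0044 for XBP1, 0.02 for SDF2L1 and 0.03 for PDIA4. On the log2(FPKM + 1), log2(TPM + 1) and log2(TPM + 0.1) scales they were 0.65, 0.66 and 0.70 for EIF2AK2 and 0.09 on each for HSPA5. They were 0.05, 0.04 and 0.04 for HSP90B1, 0.04, 0.04 and 0.06 for PPP1R15B, 0.04 on each for DDIT3, and 0.02 on each for SDF2L1 and PDIA4. TRIB3 was at -0.01 with DESeq2 and with its size factors and at -0.0013 without expression filter, and HSPA5 was at 0.0021 with the replicate block. With control 1 and high-temperature 3 left out together, the values were 1.06 for XBP1, 0.48 for PPP1R15B, 0.38 for HSPA5, 0.31 for DDIT3 and CANX, 0.23 for EIF2AK4 and 0.21 for DNAJB9. They were 0.10 for SEL1L, 0.04 for HERPUD1, 0.03 for PDIA6, 0.0026 for HSP90B1 and -0.03 for CHAC1. The median of the other pathway genes was then 0.10, and 22 of 30 members were above 0.

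Leaving out single libraries gave ranges of -0.23 to 0.22 for HSPA5, -0.09 to 0.03 for HSP90B1, -0.16 to 0.21 for DDIT3, -0.18 to 0.03 for ATF6 and -0.97 to 0.65 for XBP1. The kinases ranged from -0.41 to 1.38 (EIF2AK1), -0.49 to 0.48 (EIF2AK3) and -0.51 to 0.07 (EIF2AK4). The range was -0.55 to 0.01 for DNAJB9, -0.13 to 0.05 for SDF2L1, -0.02 to 0.17 for PDIA3, -0.31 to 0.04 for PDIA6 and -0.41 to 0.23 for CANX. For TRIB3, SESN2, HYOU1 and PPP1R15B it was -0.31 to 0.54, -0.07 to 0.17, -0.01 to 0.17 and -0.30 to 0.29. ATF4 and PPP1R15A stayed above 0 under each of the 15, at 0.30 to 0.64 and 0.37 to 0.69. ERN1, CALR and CRELD2 also stayed above 0 wherever they were fitted, at 0.04 to 0.24, 0.04 to 0.27 and 0.02 to 0.27. DNAJC3, ASNS and MANF stayed below 0 under each of the 15, at -0.24 to -0.03, -0.28 to -0.0038 and -0.45 to -0.07.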
